A study of Rattus norvegicus with 16 samples.

Results

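Lct, Fcgrt, Prdm1, Ass1, Si, Mgam, Treh and Arg2 were followed in the stomach and the middle part of the intestine of suckling rats given obestatin. These 8 genes were taken by their symbol in the array design, which has 10 probes for them, 2 each for Mgam and Prdm1 and 1 for each of the rest. All 10 probes passed the filter on dim probes, as did 21170 of the 30367 probes of the array. The rats were Wistar pups (Wistar Han in the methods) that stayed with their mothers and were breast-fed. Between days 14 and 21 of life they were gavaged 2 times daily with saline (C) or with obestatin at 250 nmol/kg body weight (OH), and were killed on day 21. Obestatin is a peptide cut from the same precursor as ghrelin. There were 16 arrays, 4 for each combination of tissue and treatment. Each array carried total RNA of 1 rat's tissue in Cy5 and, in Cy3, a reference pool made of the RNA of all rats from both tissues. No array had the dyes swapped. Which litters the rats on the arrays came from is not given in the sources used here, so that p-values measure only the spread between these samples.

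Around weaning the epithelium of the rat small intestine exchanges 1 set of genes for another. The suckling epithelium carries lactase (Lct), which splits milk sugar, the neonatal Fc receptor (Fcgrt), which carries maternal IgG from milk into the blood, argininosuccinate synthase (Ass1), which makes the precursor of arginine, and the transcriptional repressor Blimp1 (Prdm1), which holds back the adult programme. The weaned epithelium carries sucrase-isomaltase (Si), maltase-glucoamylase (Mgam) and trehalase (Treh), which digest the sugars and starch of solid food, and the mitochondrial arginase Arg2, which breaks arginine down. Below, the first 4 genes are called the suckling side and the second 4 the weaning side.

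The probes are 60 bases long and each was spotted 2 times on an array. Coordinates are those the array design gives for the rn4 build, and no rn4 annotation was used to say which exon they lie in. The Lct probe lies at chr13:40990706-40990765 and the Fcgrt probe at chr1:95568453-95568512, both on the minus strand, and the Arg2 probe at chr6:101927878-101927937 on the plus strand. The Si probe is placed over chr2:163521445-163523872 on the minus strand and the Ass1 probe over chr3:10620727-10622079 on the plus strand. Both of these spans are longer than the probe, so the probe bridges at least 1 intron and reads spliced RNA. The Mgam probes start 230 bases apart, at chr4:68491235-68491294 (probe 1) and chr4:68491465-68491524 (probe 2) on the plus strand. Laid over each other without gaps, they shared 50 of 53 bases, shown in capitals, so the pair is not 2 independent readings of the gene. The probes of the genes that the results below turn on read, 5′ to 3′:
Mgam probe 1: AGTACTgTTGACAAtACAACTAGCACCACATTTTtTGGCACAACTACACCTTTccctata
Mgam probe 2: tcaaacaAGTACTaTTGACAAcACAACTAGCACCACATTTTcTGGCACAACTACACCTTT
Si: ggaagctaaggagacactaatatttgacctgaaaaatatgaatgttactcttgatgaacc
Lct: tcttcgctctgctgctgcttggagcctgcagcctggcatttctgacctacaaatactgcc
Fcgrt: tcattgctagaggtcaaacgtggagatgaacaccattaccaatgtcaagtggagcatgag
Ass1: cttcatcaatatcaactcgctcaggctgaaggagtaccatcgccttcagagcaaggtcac
Arg2: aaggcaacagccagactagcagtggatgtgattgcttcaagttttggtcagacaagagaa
The Treh probe lies at chr8:47645051-47645110 on the plus strand. The Prdm1 probes lie at chr20:48440839-48440898 (probe 1) and chr20:48438573-48438632 (probe 2) on the minus strand.

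The arrays bore out their tissue labels: all 12 genes of the stomach mucosa list were lower in middle intestine than in stomach in both treatments, and 12 of 13 enterocyte markers that are not among the 8 genes were higher. The 4 groups occupied 4 slides, 1 group to a slide, and the OH slides shared a scan day that differed from that of the C slides. The effects of slide, scan day and treatment therefore cannot be told apart. The median raw Cy3 signal was 188 to 195 on the C arrays and 341 to 399 on the OH arrays. For that reason the changes of both dyes are given beside the ratios. Correlations between arrays of a group ran from 0.707 to 0.943 over the 21170 probes, and with 4 arrays a group their number limits the precision. Ratios below are log2 of Cy5 over Cy3, so that 0 means equal signal from the tissue and the pool. Differences between groups are log2 fold changes from limma with Benjamini-Hochberg adjusted p over all 21170 probes. The whole tissue was measured, in which fewer cells of a type and less RNA per cell cannot be told apart.

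None of the 8 genes changed with obestatin at an adjusted p below 0.05 (limma), either in stomach, where 0% of all probes were called, or in middle intestine, where 0.368% were (78 of 21170). In stomach no gene passed an unadjusted p of 0.05, against 10.6% of all probes. In middle intestine 2 of 8 did, Mgam and Ass1, against 10.5%. The test of the difference in response between the tissues called no gene either, and 0% of all probes, with Mgam below an unadjusted p of 0.05 against 5.85% of all probes. That value says nothing of Mgam, since its stomach change was taken from Cy5 signals at background and the probes gave stomach changes of opposite sign. With Tukey's test as named in the methods, 1 of the 8 genes was called in middle intestine (Mgam, beside 4.42% of all probes) and 0 in stomach (beside 3.35%). The p of Tukey's test between groups is not adjusted over the probes, unlike that of limma. Between middle intestine and stomach 6 of 8 genes were called in C rats, against 45% of all probes, 5 of them higher in intestine (22.3%) and 1 lower (22.7%), and in OH rats 5 of 8, against 38.2%, all higher (19.1%). Si and, but for 1 spot of C array 1, Mgam were not above background in stomach and passed the filter through the intestine, where they are high. The full count is therefore no support for a tissue difference of the set. Treh was not above background on 1 OH stomach array but passed the filter in C stomach as well. Of the 5 genes above background on all 16 arrays, 3 were called in C (Lct and Prdm1 higher, Ass1 lower) and 2 in OH (Lct and Prdm1 higher).

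**Figure D1:**
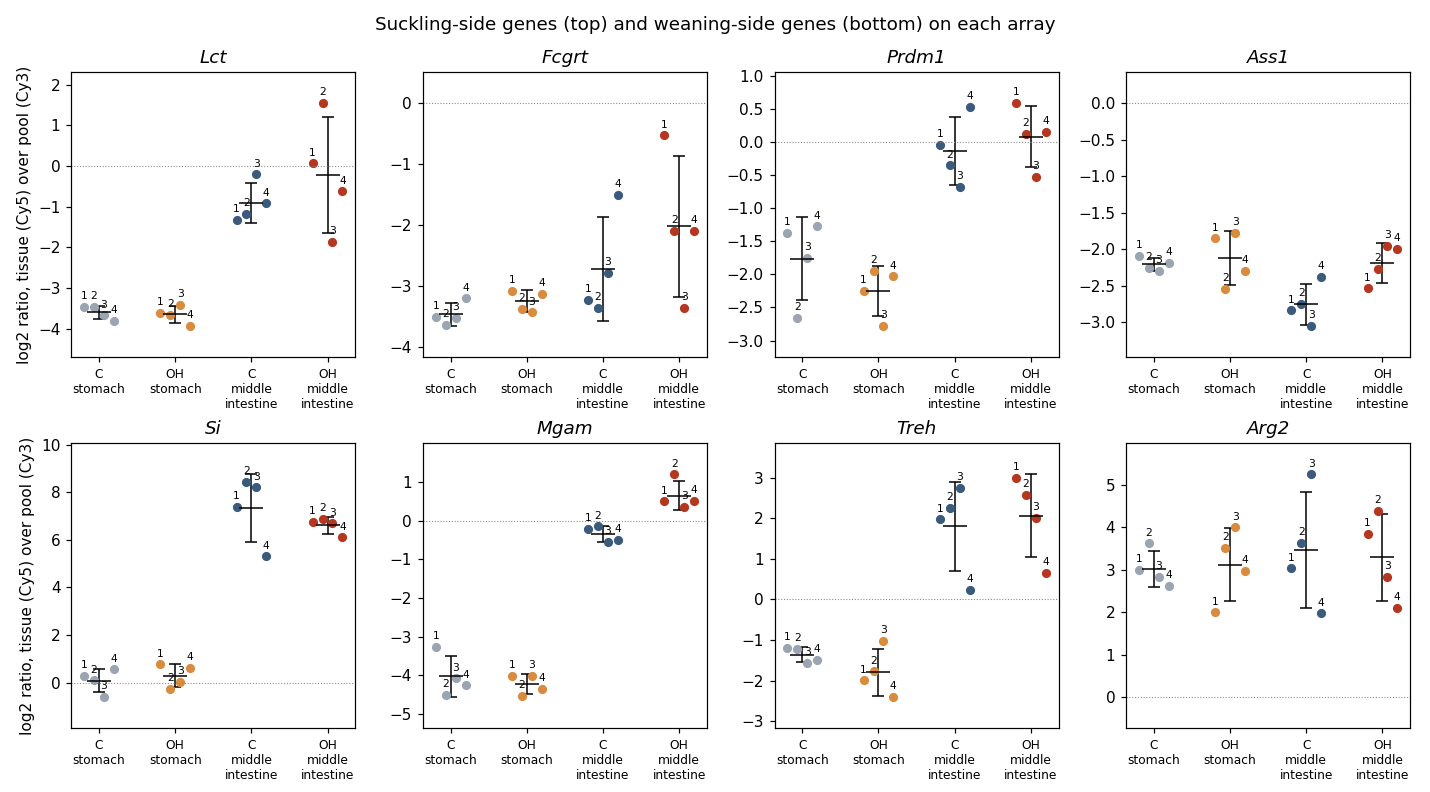
Log2 ratio of tissue (Cy5) over the reference pool (Cy3) for the 8 genes on each of the 16 arrays, with suckling-side genes on top and weaning-side genes below. Points are single arrays with their replicate number, bars the mean ± SD of 4 arrays, and Mgam and Prdm1 are shown by probe 2; Si, Mgam, Treh, Lct and Prdm1 were higher in middle intestine, and Arg2 stood above 0 and Ass1 and Fcgrt below 0 on all 16 arrays.

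Lactase was clearly lower in stomach than in intestine and varied widely among the intestines. In C middle intestine its ratio was -1.32, -1.17, -0.20 and -0.91 on arrays 1 to 4, and in OH middle intestine 0.06, 1.55, -1.86 and -0.62. The OH group thus held both the highest and the lowest intestine of the 8. On the stomach arrays the ratio ran from -3.93 to -3.41 with no gap between C and OH. Middle intestine was higher than stomach by 2.70 in C (SE 0.50, adjusted p = 0.000531) and by 3.43 in OH (SE 0.50, adjusted p = 7.49e-05). OH minus C was 0.69 in middle intestine (95% interval -0.38 to 1.75, adjusted p = 0.709) and -0.05 in stomach (-1.11 to 1.01, adjusted p = 0.984). The pool gave a steady Cy3 signal for Lct, 10.73 to 11.03 on the intestinal arrays, and the range of the ratio lay in Cy5, from 9.17 to 12.38.

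Sucrase-isomaltase was measured in middle intestine and not in stomach, so that its tissue difference has only a lower bound. In C middle intestine its ratio was 7.38, 8.43, 8.21 and 5.32, and in OH middle intestine 6.76, 6.88, 6.69 and 6.10. The OH values lay within the C range. The stomach arrays gave -0.60 to 0.78, and none of these 8 arrays had a Cy5 signal well above background. Cy5 was normalized between arrays and set against the dimmest signal that was well above background on each stomach array. Si was then at least 69.3-fold higher in middle intestine than in stomach in C rats and at least 105-fold higher in OH rats. The adjusted p of the ratio in limma (6.61e-08 and 3.02e-07) compares the intestine with stomach signals at background and is no support for the difference. These bounds are of Cy5 alone, without swapped dyes and so open to dye bias, and do not bound the ratio, whose fitted fold in OH rats was 79.8. They rest on single arrays: without OH array 2 the OH bound was 51.6-fold, and without C array 3 or C array 4 the C bound was 44.7-fold or 119-fold (omissions chosen after seeing the data).

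In Cy3 the pool read near background at the Si probe, though it is described as RNA of all rats from both tissues. The reason was not tested, so Cy3 is not taken here as a measure of the Si RNA in the pool. The log2 Cy3 signal was 2.04 to 3.28 on 7 of the 8 intestinal arrays and 6.47 on OH array 2. That array also had the highest Cy5 signal for Si (13.35, against 7.47 to 11.38 on the others). Cy3 was well above background at both spots on OH array 2, at 1 of 2 spots on OH array 3 and at none on the other 6. The ratio of Si therefore has a denominator near background, and its direction between treatments differed from that of the dyes. OH minus C was -0.73 for the ratio (95% interval -1.85 to 0.40, adjusted p = 0.709), 0.66 for Cy5 and 1.39 for Cy3. The sign of the Cy5 change rests on OH array 2. In Cy5 the other OH arrays read 9.33, 9.97 and 8.82, and the C arrays 9.42, 10.56, 11.38 and 7.47. Without C array 4 the ratio difference was -1.397 and without C array 2 it was -0.36. No change of Si with obestatin was detectable in either direction, and the cause of the Cy3 signal on OH array 2 was not tested.

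Maltase-glucoamylase was the only gene of the 8 whose C and OH intestines did not overlap, against 3.72% of all probes with all OH arrays above all C arrays in that tissue. With probe 2, the brighter probe, its ratio was -0.21, -0.15, -0.54 and -0.49 in the C intestines and 0.50, 1.19, 0.36 and 0.52 in OH middle intestine. Probe 1 gave -0.11, -0.19, -0.52 and -0.48 against 0.25, 1.30, 0.42 and 0.47. OH minus C was 0.99 with probe 2 (95% interval 0.47 to 1.51, adjusted p = 0.107 in limma) and 0.94 with probe 1 (0.48 to 1.40, adjusted p = 0.0788). The exact permutation test, two-sided, gave p = 0.0286 for both, which is the smallest that 4 arrays against 4 allow.

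The larger part of that difference lay in the dye of the pool. For probe 2, Cy5 was higher in OH by 0.32 and Cy3 was lower by 0.67 (change -0.67), and for probe 1 the changes were 0.21 and -0.73. In Cy3 the C arrays read 6.60 to 6.89 with probe 2 and the OH arrays 5.91 to 6.36, while in Cy5 the groups overlapped, 6.06 to 6.74 and 6.41 to 7.18. With Cy5 alone, quantile normalized, the difference was 0.27 (adjusted p = 0.794). In stomach the Cy3 signal of Mgam was also lower on the OH arrays, by -0.29 with probe 2 and -0.23 with probe 1, and the ratio did not pass the test (-0.20, adjusted p = 0.802, and 0.26, adjusted p = 0.701). Whether the pool or the slides carried this difference was not tested. In stomach, no array had Mgam probe 1 well above background in Cy5, and probe 2 was so at 1 spot of C array 1 alone. By probe 1, Mgam was at least 7.11-fold higher in middle intestine in C rats, and in OH rats at least 7.76-fold by probe 1 and 8.56-fold by probe 2.

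**Figure D2:**
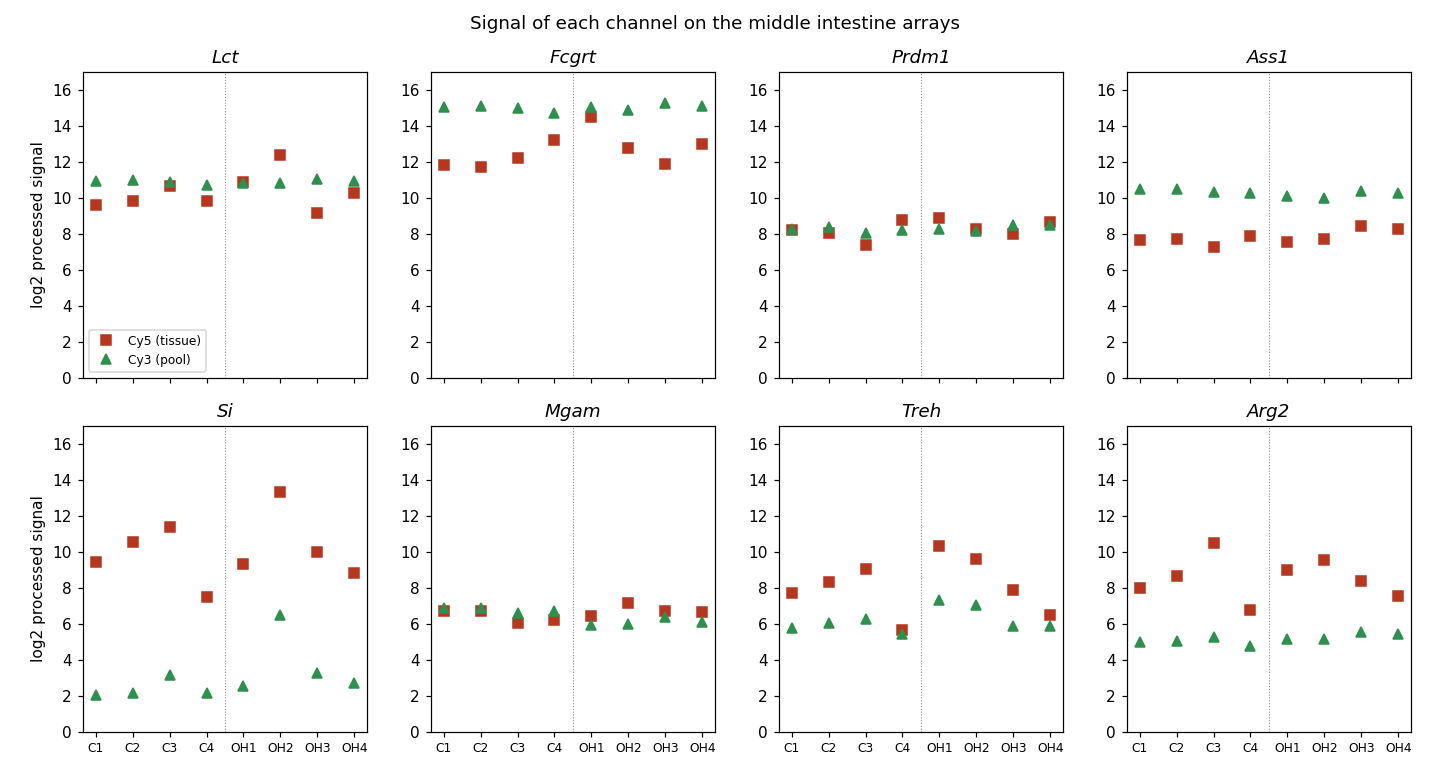
Log2 processed signal of both dyes for the 8 genes on the 8 middle intestine arrays (C1 to C4 and OH1 to OH4), with squares for Cy5, the rat's tissue, and triangles for Cy3, the reference pool. The pool reads near background for Si apart from OH2, lies above the tissue for Fcgrt and Ass1 and below it for Arg2 on every array, and is dimmer on the OH arrays than on the C arrays for Mgam.

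Trehalase split the intestines within each treatment. Its ratio was 1.97, 2.25, 2.75 and 0.24 in the C intestines and 3.00, 2.59, 2.02 and 0.66 in OH middle intestine, so that array 4 of each group stood well below the rest. The stomachs gave -2.41 to -1.02, with Cy5 well above background on all 4 C arrays and 3 of 4 OH arrays. Middle intestine was higher than stomach by 3.16 in C (SE 0.52, adjusted p = 0.000221) and by 3.86 in OH (adjusted p = 4.07e-05). OH minus C was 0.26 in middle intestine (95% interval -0.86 to 1.38, adjusted p = 0.949). OH arrays 1 and 2 had the highest Cy5 signals for Treh (10.31 and 9.63) and the highest Cy3 signals (7.32 and 7.04, against 5.42 to 6.29 on the other 6).

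The neonatal Fc receptor was below the pool on all 16 arrays. A ratio below 0 on every array was found for 6.04% of all probes, and for 2 of the 8 genes, Fcgrt and Ass1. Below -0.5 it was found for 2.02% of all probes and the same 2 genes. In C middle intestine the Fcgrt ratio was -3.23, -3.36, -2.79 and -1.50, in OH middle intestine -0.53, -2.10, -3.35 and -2.09, and in the stomachs -3.63 to -3.07. OH array 1 and C array 4 were the highest intestines, and the lowest of them read like stomach. The difference between the tissues was 0.74 in C (SE 0.47, adjusted p = 0.216) and 1.23 in OH (SE 0.47, adjusted p = 0.0534), neither past the threshold. The OH difference was called with normexp and loess, with Cy5 alone and with the replicate block (adjusted p = 0.0416, 0.0443 and 0.0494). OH minus C was 0.70 in middle intestine (95% interval -0.31 to 1.71, adjusted p = 0.684) and 0.21 in stomach (-0.80 to 1.23, adjusted p = 0.905). The pool was bright, 14.67 to 15.28 in Cy3 over the 16 arrays, against 11.07 to 14.49 in Cy5. As for the arginine genes below, a bias of the probe towards 1 dye and a difference from the pool cannot be told apart. B2m, the light chain of the same receptor, was higher in middle intestine than in stomach by 1.36 in C (adjusted p = 0.019) and by 2.40 in OH, and differed by 0.51 between OH and C intestines (adjusted p = 0.77). Of the 4 other genes of IgG and IgA transport that passed the filter, B2m was higher in intestine in both treatments, and Pigr, the carrier of secretory IgA, was lower in C rats (-0.66, adjusted p = 0.0476) and differed by -0.41 in OH rats (adjusted p = 0.218). The test of the difference between these 2 values gave 0.24 (adjusted p = 0.948), and none of the 4 was called for obestatin.

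Prdm1 was higher in middle intestine than in stomach in both treatments, without overlap of the tissues. Probe 2 read -0.04, -0.35, -0.67 and 0.54 in the C intestines, 0.59, 0.12, -0.53 and 0.16 in OH middle intestine, and -2.78 to -1.27 in the stomachs. Probe 1 stood higher against the pool (0.03 to 1.59 in the intestines) and gave tissue differences of nearly the same size, 1.64 in C and 2.35 in OH, against 1.63 and 2.34 with probe 2 (SE 0.33 each, adjusted p = 0.00115 or less). OH minus C in middle intestine was 0.51 with probe 1 and 0.22 with probe 2 (adjusted p = 0.664 and 0.914), and in stomach -0.21 and -0.49 (0.862 and 0.628). In plasma cells Prdm1 is a defining factor as well. The plasma and B cell list had 3 of 8 genes on the array past the filter, and its mean ratio ranged from -0.90 to 0.72 in C and from -0.24 to 0.91 in OH intestines. By probe 2 Prdm1 was highest on OH array 1 and C array 4, with list means of 0.91 and 0.71, and by probe 1 on OH array 3 (1.59) with a list mean of 0.45. The part of these cells in the Prdm1 signal was not tested.

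The 2 arginine genes lay on opposite sides of the pool in every sample. Ass1 was below the pool on all 16 arrays, from -3.05 to -1.78. Of all probes 6.04% were below the pool on all 16, and 0.992% stayed below -1. Arg2 was above the pool on all 16, from 1.98 to 5.25. Of all probes 12.9% were above the pool on all 16, and 0.123% (26 of 21170) stayed above 1. Arg2 read 4.71 to 5.53 in Cy3 and 6.76 to 10.51 in Cy5, and Ass1 10.01 to 10.63 in Cy3 and 7.25 to 8.69 in Cy5. As the dyes were not swapped, a bias of the probe towards 1 dye and a difference from the pool cannot be told apart.

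For Ass1 the ratio was -2.84, -2.75, -3.05 and -2.38 in the C intestines and -2.54, -2.27, -1.95 and -1.997 in OH middle intestine. The groups overlapped only through C array 4 and OH array 1. OH minus C was 0.56 (95% interval 0.16 to 0.97, adjusted p = 0.254 in limma), made of 0.38 in Cy5 and -0.18 in Cy3. The exact permutation test gave p = 0.0571. In stomach OH minus C was 0.09 (-0.31 to 0.49, adjusted p = 0.901). Ass1 was also the only gene of the 8 that was called lower in middle intestine, by -0.55 in C rats (SE 0.19, adjusted p = 0.0291), while in OH rats the tissues differed by -0.07 (adjusted p = 0.796). The C call did not hold with Cy5 alone (-0.39, adjusted p = 0.0926), with 2 other settings, or without any 1 of C stomach arrays 1 and 4 and C intestine arrays 1, 2 and 3 (adjusted p = 0.0557 to 0.082). The test of the difference between these 2 differences, the same as that of the response to obestatin between tissues, gave 0.47 (95% interval -0.10 to 1.05, adjusted p = 0.846).

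Arg2 had the largest pooled SD of the 8 genes among intestines (1.21), though Lct had the wider range (10.6-fold against 9.65-fold), and it had no tissue difference past the threshold. Its ratio was 3.03, 3.63, 5.25 and 1.98 in the C intestines, 3.84, 4.39, 2.84 and 2.10 in OH middle intestine, 3.00, 3.62, 2.83 and 2.61 in C stomach and 2.00, 3.51, 4.00 and 2.97 in OH stomach. All 4 groups overlapped. Middle intestine minus stomach was 0.45 in C (95% interval -0.90 to 1.81, adjusted p = 0.585) and 0.17 in OH (adjusted p = 0.855), and OH minus C was -0.18 in middle intestine (-1.53 to 1.18, adjusted p = 0.978) and 0.10 in stomach (adjusted p = 0.971). Both intervals of OH minus C are wide enough to hold more than a 2-fold change either way.

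**Figure D3:**
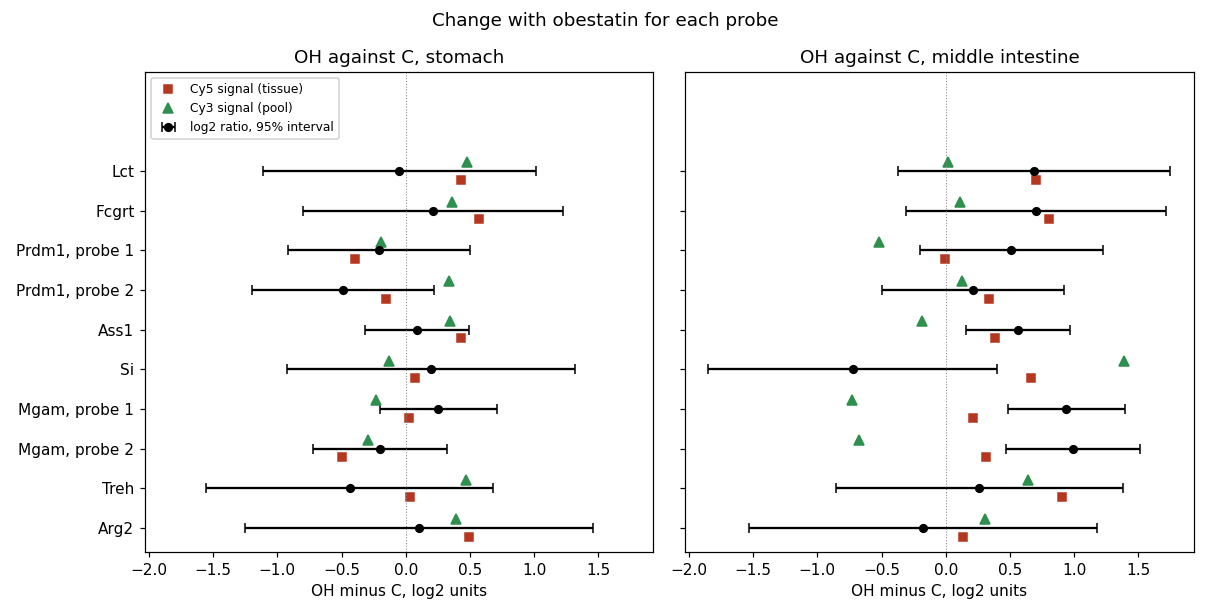
OH minus C for each of the 10 probes in stomach (left) and middle intestine (right), in log2 units. Circles with bars are the fitted change of the ratio with its 95% interval, squares the change in Cy5 and triangles the change in Cy3; in middle intestine the intervals of both Mgam probes and of Ass1 lie above 0, though no adjusted p is below 0.05, and the Cy3 changes of Mgam are -0.73 and -0.67.

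The order of the 4 groups was the same in outline for the weaning-side enzymes. For Si, Mgam and Treh both intestines stood above both stomachs without overlap, while C and OH of the same tissue overlapped, apart from Mgam in intestine. Lct and Prdm1 had the same order. Intestines above stomachs without overlap were found for 22.1% of all probes in C and 17.7% in OH. Si and, but for 1 spot, Mgam were not above background in stomach and passed the filter through the intestine, so their order is no support for a tissue difference. For Fcgrt, Ass1 and Arg2 neighbouring groups overlapped throughout, except that all C intestines lay below all C stomachs for Ass1 (21.6% of all probes).

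A weaning index was formed per array as the mean ratio of the 4 weaning-side genes less that of the 4 suckling-side genes. It was 4.90, 5.44, 5.59 and 2.82 in the C intestines and 4.13, 4.44, 4.90 and 3.48 in OH middle intestine, and 1.89 to 2.60 in the stomachs. The means ± SD were 4.69 ± 1.28 in C and 4.24 ± 0.59 in OH intestines (n = 4 each), which overlapped. The suckling side alone had means of -1.63 ± 0.39 in C and -1.08 ± 0.61 in OH, and the weaning side 3.06 ± 0.94 and 3.15 ± 0.63. Si less Lct, the classical enzyme pair, was 8.70, 9.59, 8.41 and 6.23 in C and 6.70, 5.33, 8.55 and 6.72 in OH. C and OH overlapped in each of these sums. They rest on the Si ratio, with its denominator near background, and in stomach on Si and Mgam at background. With log2 Cy5 alone, chosen after seeing the data, the index was -1.41 ± 1.41 in C and -1.46 ± 0.97 in OH intestines, and Si less Lct was -0.27 ± 1.45 and -0.31 ± 1.38.

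Rat-to-rat spread was itself a common trait of 5 of the 8 genes. The pooled SD within groups in middle intestine was 1.06 for Lct, 1.01 for Fcgrt, 1.03 for Si, 1.06 for Treh and 1.21 for Arg2, against a median of 0.28 over all probes, which put them at the 98.7th to 99.3rd percentile. Mgam (0.30), Ass1 (0.28) and Prdm1 (0.49) were at the 53.7th, 48.3rd and 84.1st. In stomach Lct and Fcgrt were near the middle of all probes (0.19 and 0.18, 37th and 33.8th percentile), while Treh, Si and Arg2 were at the 79.2nd, 83.9th and 92nd. The stomach value of Si comes from signals not well above background in either dye, and Treh in Cy5 was well above background on 3 of 4 OH stomach arrays.

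The 8 genes did not all rank the rats alike, though some of them did so in part. Fcgrt and Prdm1 by probe 2 had the same highest intestines in the same order: OH array 1, C array 4, OH array 4 and OH array 2. By probe 1, Prdm1 was highest on OH array 3 (1.59). C array 4 had the lowest Si, Treh and Arg2 of the 8 intestines and the second highest Fcgrt, and OH array 4 had the second lowest of the same 3 weaning-side genes. OH array 2 had the highest Lct and Mgam, OH array 1 the highest Fcgrt and Treh, and OH array 3 the lowest Lct with the highest Ass1.

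**Figure D4:**
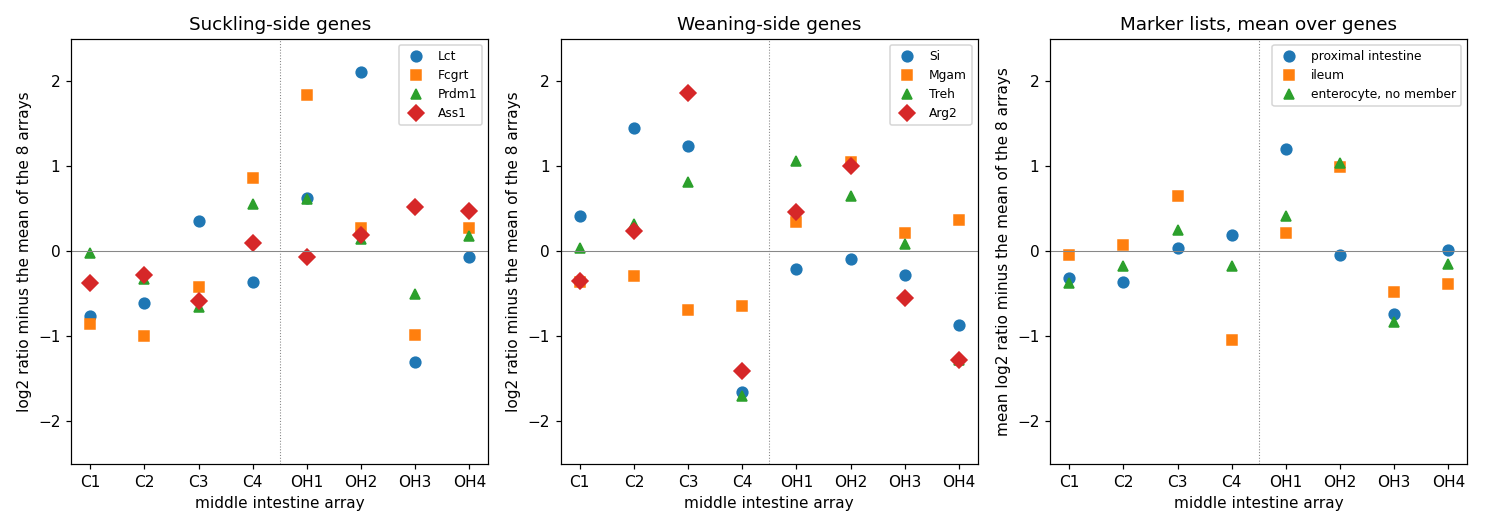
Suckling-side genes (left), weaning-side genes (middle) and 3 marker lists (right) on the 8 middle intestine arrays, each as log2 ratio less its own mean over these arrays. C4 and OH4 are low for Si, Treh and Arg2, OH2 is high for Lct, OH1 for Fcgrt and for the proximal list, and C4 is low for the ileum list.

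Markers of position along the gut moved over the same arrays. The mean ratio of the proximal list (8 of 8 genes well above background on every intestinal array) was -0.54, -0.59, -0.18 and -0.03 in C and 0.98, -0.26, -0.96 and -0.20 in OH middle intestine. On OH array 1 its gene Onecut2 read 0.07 and Slc40a1, the iron exporter of the duodenum, 2.05, against -2.32 to -1.09 and -1.28 to 0.05 on the other 7. Pdx1, a factor of duodenum and pancreas named after its values were seen, read 1.67 there and -2.99 to -1.91 elsewhere. OH array 1 is the one with the highest Fcgrt. The ileum list (5 genes past the filter) had means of 1.36, 1.47, 2.05 and 0.35 in C and 1.61, 2.39, 0.92 and 1.02 in OH. C array 4 had the lowest mean, with Cubn, the receptor of the ileum for intrinsic factor, at 0.12 against 1.67 to 4.57 on the other 7. Fabp6 was also lowest there (2.78), but Amn was not (-0.96, against -1.64 to 1.06 on the others). Slc10a2, a gene of the ileum list that did not pass the filter, was highest on OH array 1 (2.53). Cubn and Amn are also on the list of further suckling-side genes below, and Fabp6 and Slc10a2 on that of weaning-side genes. The ileum list therefore does not separate gut position from the weaning change. C array 4 is also the lowest for Si, Treh and Arg2. The enterocyte list had -0.31, -0.11, 0.32 and -0.11 in C and 0.48, 1.103, -0.77 and -0.08 in OH, highest and lowest on the same arrays as Lct. The part of gut position and of enterocyte content in the spread of the 8 genes was not tested. Cdx2, a defining factor of intestinal epithelium, was even over the same arrays, at 1.34 to 1.82.

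Leaving out single arrays moved the obestatin differences of the variable genes. The Fcgrt difference in middle intestine, 0.70, was 0.20 without OH array 1 and 1.15 without OH array 3. The Lct difference, 0.69, was 0.10 without OH array 2 and 1.23 without OH array 3. The Treh difference, 0.26, was -0.26 without C array 4 and 0.73 without OH array 4, and that of Arg2, -0.18, was 0.42 without C array 3 and -0.67 without C array 4. None of these was past the threshold with or without the array. For Mgam probe 2 the difference stayed between 0.81 and 1.08 and its adjusted p between 0.0642 and 0.262.

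Genes that followed each member most closely over the 16 arrays were named by the root mean square difference of their centred ratios, among 13180 genes. For Lct they were Apoa1, the main protein of HDL made by absorbing enterocytes (0.27), and Slc5a1, the sodium-glucose transporter (0.29). For Fcgrt they were Slc11a2 (0.35) and Slc40a1 (0.38), the importer and exporter of iron in duodenal enterocytes. Si was followed by Aldh1b1 (0.66) and Cdx2 (0.73), Mgam by Gpa33 (0.41) and Ush1c (0.42), Treh by Gsta5 (0.44) and Slc26a6 (0.46), Prdm1 by Ptprr (0.37) and Flrt3 (0.39), Arg2 by Upp1 (0.46) and Ces2j (0.51), and Ass1 by Ahsp and Glg1 (0.21 each). For the genes high in intestine this likeness holds the tissue difference that all of them share, and its part was not separated from that of spread among intestines. For Lct the differences of 0.27 and 0.29 lay below its pooled SD among intestines (1.06), so spread shared with Apoa1 and Slc5a1 is part of the likeness. For Ass1 the likeness holds little more than a flat profile, as its SD over the 16 arrays was 0.36.

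Of 15 further suckling-side genes, none was called for obestatin in either tissue (0% and 0.368% of all probes), with a median change in middle intestine of 0.28 against 0.00 over all probes. Among the lowest unadjusted p-values in intestine were those of Maf, a transcription factor of the suckling epithelium (0.93, adjusted p = 0.235), and Glb1, the lysosomal galactosidase (0.24, adjusted p = 0.615). In stomach they belonged to Igf2r, Lrp2 and Aldh18a1 (-0.33, -0.82 and 0.33, adjusted p = 0.533 to 0.642). Between tissues in C rats 9 of the 15 were higher and 1 lower in middle intestine, against 22.3% and 22.7% of all probes. Otc (6.16) and Cps1 (5.70), the enzymes that make citrulline, were the highest. Igf2r, which carries ligands to lysosomes, was the 1 called lower (-0.65, adjusted p = 0.00853), and Lrp2 had the lowest value (-0.92, adjusted p = 0.196). Lrp2 was well above background on 1 of 4 C intestinal arrays. Cubn, among the 9, was so on 0 of 4 C stomach arrays and passed the filter through OH intestine, so its call is no support for a tissue difference.

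Of 13 weaning-side genes past the filter, none was called for obestatin either. Slc5a1 had the lowest unadjusted p in intestine, with -0.40, -0.08, 0.54 and -0.22 in C and 1.56, 2.56, -0.04 and 0.56 in OH (difference 1.20, SE 0.40, adjusted p = 0.257). Alpl, the tissue-nonspecific alkaline phosphatase, and Arg1, the cytosolic arginase, had the next lowest p (-0.55 and -0.19, adjusted p = 0.37 and 0.622). In stomach the lowest p-values were those of Fabp6, Odc1 and Fut2 (-0.55, 0.30 and -0.76, adjusted p = 0.629 to 0.757). In C rats 9 of 13 were higher and 3 lower in intestine (22.3% and 22.7% of all probes). They ran from Slc2a2, the basolateral glucose and fructose transporter (6.01), to Fut2, a fucosyltransferase (-3.37). Fut2 was well above background on 1 of 4 C intestinal arrays and Fabp6 on 2 of 4 C stomach arrays. Each passed the filter through the tissue where it is high, so neither is support for a tissue difference of the list.

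The regulators of the programme, 18 genes that include the glucocorticoid and thyroid hormone receptors and the Cdx, Gata, Hnf and Foxa factors, held none called for obestatin. Foxa1 (0.81, adjusted p = 0.21), Cdx1 (0.33, adjusted p = 0.33) and Hsd11b2 (-0.43, adjusted p = 0.637) had the lowest p in intestine and Nr3c1, the glucocorticoid receptor, Cdx2 and Cdx1 (0.31, 0.26 and 0.25, adjusted p = 0.419 to 0.488) in stomach. Cdx2 was the most intestinal of them (6.89 in C) and Foxa2 the most gastric (-3.00).

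In the arginine pathway, of 17 other genes past the filter, 9 were higher in C middle intestine and 2 lower (22.3% and 22.7% of all probes). Cps1 and Otc, which make citrulline in enterocytes, read -5.74 to -4.59 in the stomachs and 0.24 to 1.61 in the intestines. Asl, which turns the product of Ass1 into arginine, read -2.06, -2.02, -1.93 and -1.32 in C and -1.61, -1.46, -1.88 and -1.25 in OH intestines, and its tissue difference in C was -0.35 (adjusted p = 0.1). None of the 17 was called for obestatin. Nos1, the neuronal nitric oxide synthase, had the lowest p in intestine (1.45, adjusted p = 0.274) but was well above background on 1 of 4 C and 2 of 4 OH arrays. It was also 1 of the 2 called lower in C intestine and passed the filter through stomach, so that call is no support for a tissue difference. Asl had the next lowest p in intestine (0.28, adjusted p = 0.62). Nags (-0.53, adjusted p = 0.529) led in stomach.

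Of 11 other glycosidases past the filter, none was called for obestatin, and between tissues only Glb1 was higher in C middle intestine (0.93) while 4 were lower (22.3% and 22.7% of all probes), down to Amy2a3, a pancreatic amylase (-2.89). In stomach Amy1a, a salivary amylase, had one of the lowest p-values (-0.93, adjusted p = 0.467). The stomach samples also differed in muscle: the striated muscle list had means from -0.88 to 4.05 in C and from -0.42 to 1.07 in OH stomach, and the smooth muscle list from -2.57 to -1.38 and from -2.59 to 0.96. Their part in the stomach values of the 8 genes was not tested.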

How the data were processed

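RNA of 16 samples of stomach and middle intestine was read on 16 two-colour rat gene expression arrays of 62976 spots. The authors deposited scanner intensities from Agilent Feature Extraction (10.10.1.1 in the file headers, 10.7.3.1 in the submitters' processing notes), background-subtracted and dye-normalized by Lowess within each array (smoothing 0.25, per the file headers) and not scaled between arrays. The deposited table of log10 ratios equalled the scanner files' own ratio column, within 0.005 on OH stomach array 1 and exactly on the rest. Probe coordinates are those of rn4.

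Spots marked as outliers were left out (98.7% of spots had no such mark), and log2 of processed Cy5 over Cy3 was averaged over the spots of a probe. Of 30367 probes 21170 passed the filter on dim probes, which asked for Cy5 well above background on all arrays of at least 1 group. limma 3.58.1 in R 4.3.3 was fitted with 1 mean per group over 16 arrays, with Benjamini-Hochberg adjustment over the 21170 probes and a threshold of 0.05. The exact permutation test is two-sided. For a gene with 2 probes, the brighter in Cy5 (probe 2) stands for the gene where no probe is named. Scripts were tested on simulated data. The members and lists were chosen with earlier results of these data known. From each list the genes named are the 3 of lowest p for obestatin in a tissue and those of largest and smallest tissue difference, and 2 genes of closest profile are named per member. Some genes that this rule selects are not reported here. Alternatives were background correction, scaling, Cy5 alone, the deposited log10 ratios, filters, the replicate block, single arrays left out, and Tukey's test as named in the methods.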

Additional observations from a re-analysis of the deposited data

Results flagged for a closer look

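Of 40 sets of 4 arrays, 10 probes in 4 groups, 1 held an array far from the others, where chance alone gives about 2 at 1 in 20. Prdm1 probe 1 read -1.68 on C stomach array 2 and -0.78 to -0.70 on the other 3 C stomachs, a gap of 0.92 of the group's range. Prdm1 probe 2 also had its lowest C stomach value there (-2.65), as did B2m (-2.61). The striated muscle list was at -0.88 on that array and at 3.23 to 4.05 on the other 3, and its part in the Prdm1 value was not tested.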

How the results depend on the processing

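Of 449 values of single genes under other settings, 428 kept their direction and side of the threshold, 12 reversed, 6 passed the threshold newly (Mgam in intestine and Fcgrt between OH tissues, 3 each) and 3 lost it (Ass1 between C tissues). Mgam in middle intestine was the 1 gene called for obestatin with normexp and loess (adjusted p = 0.0411). The same held with no filter on dim probes (adjusted p = 0.0347). Tukey's test of the methods also called Mgam alone, but its p between groups is not adjusted over the probes as in limma. Over the other settings the adjusted p of Mgam was 0.105 to 0.794. With probes well above background on all arrays, 5 of the genes were tested, and 3 were called between tissues in C and 2 in OH. Over all probes, calls for obestatin in middle intestine (78) became 249 with Cy5 alone, 1378 with no filter, 936 with Tukey's test and 1 with only the arrays of that tissue. In stomach (0) they became 2 with Cy5 alone, 2 with the deposited ratios, 3 with medians centred, 639 with no filter and 709 with Tukey's test. Reversed with normexp and loess were OH minus C of Ass1 (-0.0225) and Mgam (0.0722) in stomach, of Si (0.65) and Arg2 (0.12) in intestine, the difference between tissues of Si (0.64) and the OH tissue difference of Ass1 (0.0686). Reversed with Cy5 alone were Lct (0.0774) and Si (-0.0576) in stomach, Si (0.53) and Arg2 (0.0231) in intestine and the difference between tissues of Si (0.59), and with the deposited ratios Si in stomach (-0.0259). The cause was not tested. Same-numbered stomach and intestine arrays correlated from -0.12 to 0.32 in their deviations, 5 of 8 above 0.1. In C they gave 0.143, 0.175, 0.0588 and 0.246, against -0.161 to 0.0758 for different numbers. In OH they gave -0.123, 0.198, 0.0224 and 0.322, against -0.341 to 0.303. The labels do not say whether the same number is the same rat, and these values do not settle it. The main fits did not take the numbers as pairs, so the tissue tests treat all arrays as independent. With the replicate block the calls in intestine were 40, and 6 of the genes were called between OH tissues.

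Leaving out single arrays, calls over all probes ran from 0 to 446 in stomach (446 without C stomach replicate 2), from 13 to 88 in intestine (13 without C middle intestine replicate 3), and from 0 to 159 for the difference between tissues (159 without C stomach replicate 2). Genes called between tissues were 5 to 6 in both treatments and 0 to 0 for obestatin. Ass1 between C tissues ran from -0.67 to -0.45 and lost its call in 5 of 16 such fits, and Fcgrt between OH tissues from 0.73 to 1.68, called in 2. Differences that crossed 0 were, in stomach, Lct (-0.13 to 0.0455), Ass1 (-0.0257 to 0.23), Si (-0.0357 to 0.38), Mgam (-0.36 to 0.0526) and Arg2 (-0.19 to 0.48). In intestine they were Treh (-0.26 to 0.73) and Arg2 (-0.67 to 0.42), between tissues Arg2 (-0.14 to 0.95) in C and Arg2 (-0.20 to 0.57) and Ass1 (-0.21 to 0.0453) in OH, and for the difference of responses Fcgrt (-0.0111 to 0.93) and Arg2 (-0.78 to 0.31).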
